A study of Homo sapiens with 4 samples.

Results

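The mRNAs of 10 genes of the microRNA machinery were examined for contact with the RNA helicase DHX36. They were taken by gene symbol as AGO1, AGO2, AGO3, TNRC6A, TNRC6B, TNRC6C, DICER1, DROSHA, DGCR8 and XPO5. All 10 were found among the 26490 listed genes, each on 1 line. PAR-CLIP was carried out in HEK293, a human embryonic kidney cell line, in which 4-thiouridine in new RNA is crosslinked by UV light to the bound protein and marks the contact as a T-to-C conversion. The FH-DHX36 line carried an HA- and FLAG-tagged DHX36 of isoform 2, and the FH-DHX36-E335A line a tagged, helicase-dead DHX36 of isoform 1. Both transgenes were stably integrated and were switched on by tetracycline (500 ng per ml, 15 h), with the cells' own DHX36 still present. Isoform and mutation differ together between the lines, so that their parts in any difference cannot be told apart. There were 2 samples per line, but the deposited table holds 1 value per gene and line. Replicate spread is therefore unknown, no test between the lines was possible, and intervals in this text are 95% intervals that cover counting error only.

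MicroRNAs are made from hairpins in longer transcripts. In the nucleus DROSHA, an RNase III enzyme, cuts the hairpin with the help of the RNA-binding protein DGCR8, and XPO5 exports the product to the cytoplasm. DICER1 then trims it to a short duplex, of which an Argonaute protein (AGO1 to AGO4) keeps a single strand as its guide. TNRC6 proteins (GW182) bind Argonaute and recruit the enzymes that shorten the poly(A) tail of the targeted mRNA. DHX36 unwinds G-quadruplexes, structures of stacked guanines that form where runs of G lie close together.

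For FH-DHX36-E335A there were 8752127 crosslinked reads and for FH-DHX36 2160413, a ratio of 4.05 between the depths of the PAR-CLIPs. On the DHX36 gene itself, whose coding sequence (CDS) both transgenes carry, 20031 and 15770 CDS reads were listed.

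All 10 mRNAs carried at least 1 FH-DHX36-E335A cluster, a cluster being a stretch where reads overlap and conversions accumulate, compared with 34.5% of all listed genes and 48.1% of the 17920 genes with a protein-coding transcript in the annotation. FH-DHX36 clusters were listed on 8 of the 10, compared with 22.4% of all listed genes and 31.2% of those with a coding transcript. These 8 mRNAs were bound in both PAR-CLIPs, as were 21.4% of all genes. The backgrounds include genes that HEK293 cells may not express. The members held 138 FH-DHX36-E335A clusters with 12119 reads and 26 FH-DHX36 clusters with 2084 reads. Per bound gene the median was 15.5 clusters and 1261.5 reads with FH-DHX36-E335A, where all bound genes had a median of 5 clusters and 326 reads. With FH-DHX36 it was 3.5 clusters and 182.5 reads, beside 2 clusters and 121 reads.

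**Figure D1:**
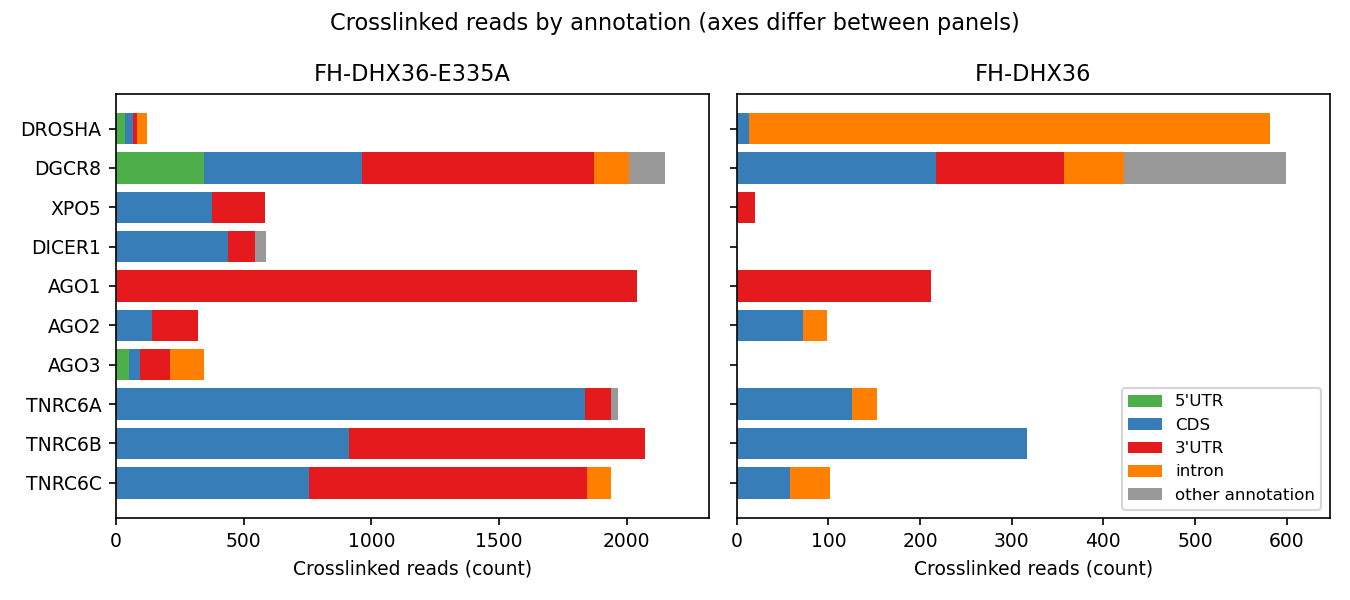
Crosslinked reads of each mRNA (horizontal axis, count) in the FH-DHX36-E335A PAR-CLIP on the left and the FH-DHX36 PAR-CLIP on the right, each on its own scale, with bars divided by annotation. DGCR8, AGO1 and the 3 TNRC6 mRNAs held 1937 to 2150 FH-DHX36-E335A reads, the other 5 held 120 to 586, and the FH-DHX36 bar of DROSHA is almost wholly intronic.

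The members fell into a higher and a lower set by FH-DHX36-E335A reads. DGCR8 (2150 reads), TNRC6B (2072), AGO1 (2041), TNRC6A (1964) and TNRC6C (1937) lay close together. DICER1 (586), XPO5 (585), AGO3 (343), AGO2 (321) and DROSHA (120) held far fewer. Thus DROSHA lay far from its partner DGCR8, and AGO2 and AGO3 far from AGO1, while the TNRC6 mRNAs lay together.

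NXPM, the authors' score of RPM (crosslinked reads per 1000000 of a PAR-CLIP's reads) divided by mRNA abundance, was highest for the TNRC6 mRNAs with FH-DHX36-E335A. FH-DHX36-E335A NXPM was 211 for TNRC6C, 178 for TNRC6B and 135 for TNRC6A. NXPM over 100 was reached by these 3 of the 10 mRNAs and by 5.18% of bound genes. With FH-DHX36 it was reached by TNRC6B alone, at 110, and by 6.78% of bound genes, and DGCR8 (45.5), TNRC6C (45.1) and TNRC6A (42.6) followed. The TNRC6 mRNAs were the least abundant of the members, with abundances recovered from the table of 1.05 for TNRC6C, 1.33 for TNRC6B and 1.66 for TNRC6A, compared with 12.8 for XPO5, the most abundant, and a median of 5.89 over genes bound by FH-DHX36-E335A. The median member lay at percentile 82.3 of NXPM with FH-DHX36-E335A, at 82.9 with FH-DHX36, and by reads that are not divided by abundance at 76.2 and 61.0.

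**Figure D2:**
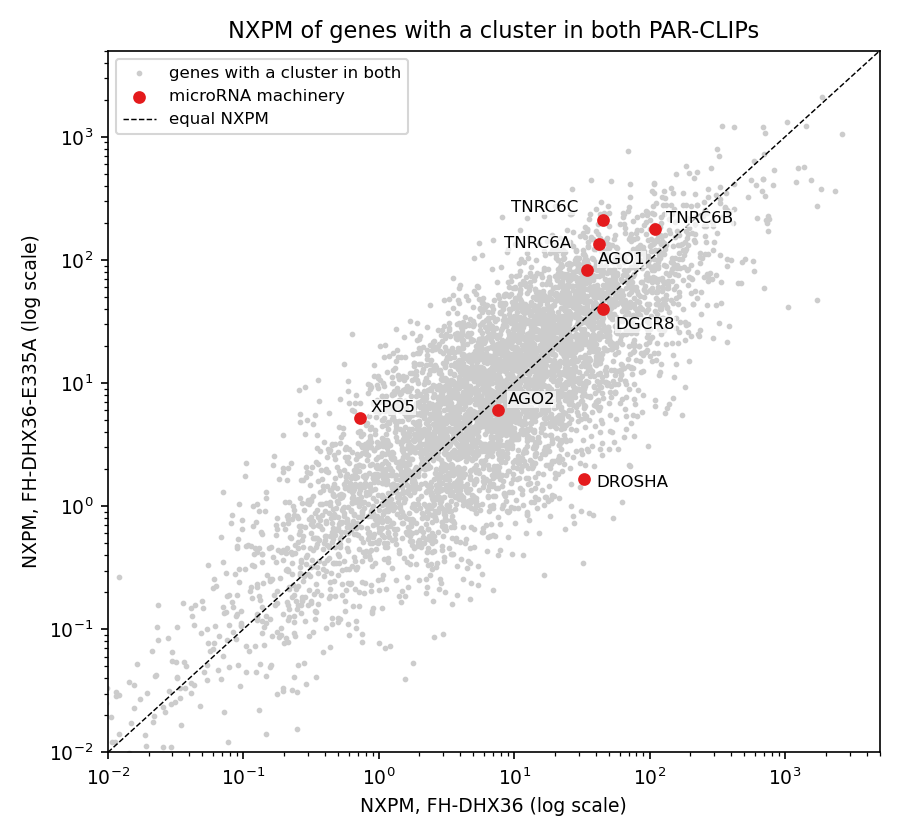
NXPM in the FH-DHX36 PAR-CLIP (horizontal axis) against the FH-DHX36-E335A PAR-CLIP (vertical axis), both on log scales, for genes bound in each, with the 8 microRNA machinery mRNAs in red and 65 of 5669 genes beyond the axes. The TNRC6 mRNAs lie toward the upper right, XPO5 lies above the line of equal NXPM, and DROSHA lies far below it.

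DROSHA, the nuclear RNase III encoded on the minus strand at GRCh37 chr5:31400601-31532200, was the member that leaned most to FH-DHX36. It had 582 FH-DHX36 reads in 3 clusters, and 569 of them, or 97.8% (96.2% to 98.7%, Wilson), were intronic, in 2 clusters. The other 13 lay in the CDS. More than 50% of the reads were intronic on 13.1% of all genes bound by FH-DHX36. With FH-DHX36-E335A, DROSHA had 120 reads in 4 clusters, made up of 34 in the 5'UTR, 32 in the CDS, 15 in the 3'UTR and 39 in an intron. Intronic reads were the majority on none of the 10 mRNAs there, and on 5.9% of bound genes. Scaled to all reads, DROSHA was 19.6 times higher with FH-DHX36 (16.1 to 24.1), whereas on exonic reads alone it was 1.55 times higher with FH-DHX36-E335A, from only 13 exonic FH-DHX36 reads.

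DGCR8, the partner of DROSHA, encoded on the plus strand at chr22:20067764-20099395, had the most reads of the members in both PAR-CLIPs and was the only member with FH-DHX36-E335A reads under all 5 annotations. Its 2150 FH-DHX36-E335A reads in 17 clusters comprised 343 in the 5'UTR, 619 in the CDS, 909 in the 3'UTR, 137 in introns and 142 with another annotation. Its 599 FH-DHX36 reads in 6 clusters comprised 217 in the CDS, 140 in the 3'UTR, 65 in introns and 177, or 29.5%, with another annotation. The 5'UTR carried 817 FH-DHX36-E335A reads per kb, more than its 3'UTR with 515 or its CDS with 267. The 5'UTR value rests on 1 cluster, beside 6 in the 3'UTR and 5 in the CDS. None of the members' 26 FH-DHX36 clusters was in a 5'UTR. Over all genes 7.97% of FH-DHX36 reads were in 5'UTRs, which is a share of reads. The share of bound genes with a 5'UTR cluster was not computed, so no lack of 5'UTR binding is claimed. The 3'UTR of DGCR8 begins, at its first base after the stop codon, with a G-rich stretch. It is shown here because, in the region where DGCR8 held most reads, it has the highest G share of the stretches of at most 30 nt that match a chain of 4 or more G runs, each 2 nt or longer and 1 to 7 nt from the next. It has 6 such runs, in capitals, on the plus strand of GRCh37 at chr22:20097632-20097660.
DGCR8: GGGaGGtGGcacGGGccaGGGcgcGGGGG

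XPO5, the export receptor for precursor microRNAs (chr6:43490072-43543775, minus strand), was bound mainly with FH-DHX36-E335A. It had 585 reads in 12 clusters, of which the CDS held 376 and the 3'UTR 209. With FH-DHX36 it had a single 3'UTR cluster of 20 reads. Its RPM were 66.8 and 9.26, a ratio of 7.22 (4.63 to 11.9, exact interval). This was the largest ratio among the members, and it rests on 1 FH-DHX36 cluster.

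DICER1, which makes the mature duplex (chr14:95552565-95623866, minus strand), was bound with FH-DHX36-E335A and had no FH-DHX36 cluster. Of its 586 reads in 16 clusters, the CDS held 438, the 3'UTR 108 and another annotation 40. The CDS share of 74.7% (71.1% to 78.1%) stands beside 16.9% of all FH-DHX36-E335A reads. NXPM was 23.5, at percentile 78.5.

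AGO3 (chr1:36396706-36538101, plus strand) was likewise without an FH-DHX36 cluster. Its 343 FH-DHX36-E335A reads in 10 clusters were spread over introns (132), the 3'UTR (118), the 5'UTR (51) and the CDS (42). For DICER1 and AGO3, the FH-DHX36-E335A reads scaled to the FH-DHX36 total would be 145 and 84.7, above the smallest count of 6 listed for a gene with an FH-DHX36 cluster. These are totals over 16 and 10 clusters, with 36.6 and 34.3 reads per cluster before scaling. Scaled by the depth ratio of 4.05, a single cluster would lie much closer to 6. Of the 1224 genes with 343 to 586 FH-DHX36-E335A reads, 71% had an FH-DHX36 cluster. Since the table lists reads only on genes with a cluster, both genes are listed at 0 and no fold is given. Whether the table keeps clusters found in only 1 of the samples of a line could not be told from it, so a listed 0, here and for AGO4 and the TNRC6 3'UTRs, need not mean that no sample had a cluster.

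AGO1 (chr1:36348810-36396133, plus strand) had clusters in its 3'UTR and nowhere else. All 2041 FH-DHX36-E335A reads, in 15 clusters, and all 212 FH-DHX36 reads, in 4 clusters, were in the 3'UTR, with lower limits of 99.8% and 98.2%. Of the 2039 genes with at least 200 reads in each PAR-CLIP, 2.7% had all of their reads in the 3'UTR in both. AGO1 had 186.8 FH-DHX36-E335A reads per kb of 3'UTR and an NXPM of 82.3 and, with FH-DHX36, 34.6. Its RPM were 233 and 98.1, a ratio of 2.38 (2.06 to 2.75). The AGO1 3'UTR was the only 1 of the members' 3'UTRs with 2 matches to a strict pattern, in which each G run of the chain is 3 nt or longer. Both are shown with their runs in capitals, from the plus strand of GRCh37. The first, at chr1:36386036-36386056, starts at position 828 of the 3'UTR, and the second, at chr1:36395897-36395918, at position 10689 of its 10925 nt.
AGO1 first: GGGGaatGGGGtGGGGGtGGG
AGO1 second: GGGGtaGGGcgtaaGGGGaGGG

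AGO2, the Argonaute that can cleave its targets, is encoded on the minus strand of chromosome 8. It had few listed reads for a 3'UTR that is 11888 nt long in the annotation used here. It had 321 FH-DHX36-E335A reads in 7 clusters, with 180 in the 3'UTR and 141 in the CDS, or 15.1 reads per kb of 3'UTR and 54.7 per kb of CDS. It had 99 FH-DHX36 reads in 2 clusters, with 72 in the CDS and 27 in an intron. NXPM was 6.03 and 7.54, and the RPM ratio of 0.800 (0.637 to 1.01) did not differ from 1 beyond counting error.

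The Argonaute genes thus ranged widely. AGO4, AGO1 and AGO3 lie in this order on the plus strand of chromosome 1, with 25319 nt between AGO4 and AGO1 and 573 nt between AGO1 and AGO3. AGO4, which is not among the 10, resembled AGO1 with FH-DHX36-E335A in having 1974 of its 2019 reads, or 97.8%, in the 3'UTR, and an NXPM of 120. It had no FH-DHX36 cluster, whereas 93.5% of the 184 genes with 1900 to 2200 FH-DHX36-E335A reads had one. Between the canonical transcripts, AGO1 and AGO3 had 20 identical 20-mers in common, AGO3 and AGO4 44, and AGO1 and AGO2 7, out of 7241 or more in each transcript. AGO3 also had 17 in common with TNRC6B, so such sharing was not particular to the Argonaute genes. Sequence shared with the rest of the genome was not searched.

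The TNRC6 mRNAs had similar FH-DHX36-E335A totals, and TNRC6A differed from TNRC6B and TNRC6C in where its reads lay. Their genes lie on plus strands, TNRC6A at chr16:24740972-24837539, TNRC6B at chr22:40573929-40731812 and TNRC6C at chr17:75954785-76104903. TNRC6A had 1838 of 1964 FH-DHX36-E335A reads in the CDS, or 93.6% (92.4% to 94.6%), 98 in the 3'UTR and 28 with another annotation. TNRC6B had 1160 in the 3'UTR and 912 in the CDS, and TNRC6C 1089 in the 3'UTR, 756 in coding sequence and 92 in introns. TNRC6B had 21 clusters, the only member with over 20, compared with 4.4% of bound genes, while TNRC6C had 19 and TNRC6A 17.

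With FH-DHX36 the 3'UTRs of all TNRC6 mRNAs were without a cluster. TNRC6B had 317 FH-DHX36 reads in 4 clusters, all in the CDS. TNRC6A had 126 in the CDS and 27 in an intron, and TNRC6C 58 in the CDS and 44 in an intron. At the FH-DHX36 total, the FH-DHX36-E335A reads in the 3'UTRs of TNRC6B and TNRC6C would come to 286 and 269. Of the 1071 genes bound in both and holding at least 1000 FH-DHX36-E335A reads in the 3'UTR, 4.58% had no FH-DHX36 reads there, TNRC6B and TNRC6C among them. With no minimum, this held for 5 of the 8 members bound in both (DROSHA, AGO2 and the TNRC6 mRNAs) and for 38.3% of 4726 genes. The thresholds of 1000 and, for AGO1, of 200 reads, and the ranges of reads used for DICER1, AGO3 and AGO4, were chosen after the values were seen.

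A stretch is shown for each TNRC6 mRNA from the exonic region where it held most FH-DHX36-E335A reads, the CDS of TNRC6A and the 3'UTRs of TNRC6B and TNRC6C. It is the stretch with the highest G share among matches of at most 30 nt to the looser pattern used for DGCR8, with the runs in capitals. The TNRC6B 3'UTR also holds 1 strict match, of 34 nt, which is not shown for its length. All are from the plus strand of GRCh37, at chr16:24831642-24831655, chr22:40721299-40721312 and chr17:76104701-76104722.
TNRC6A: GGtGGaGGatGGGG
TNRC6B: GGtGGGtGGGtGGG
TNRC6C: GGGaactcGGGGGacaGGaGGG

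Compared by RPM, 4 of the 8 mRNAs bound in both were over 2-fold higher with FH-DHX36-E335A (XPO5, TNRC6C, TNRC6A and AGO1), while 28.6% of the 5669 such genes were. A single member, DROSHA, was over 2-fold higher with FH-DHX36, as were 24.8% of these genes. The ratios of TNRC6C and TNRC6A were 4.69 (3.84 to 5.78) and 3.17 (2.69 to 3.76). TNRC6B was at 1.61. DGCR8 at 0.886 and AGO2 at 0.800 were lower with FH-DHX36-E335A on all reads, but on exonic reads they turned to 1.31 and 1.11. The median over the 8 was 1.99, beside 1.09 over all genes bound in both. The pooled ratio of the 10 mRNAs was 1.44 (1.37 to 1.504), and 1.97 without DROSHA. Counted by clusters in place of reads, the ratio of AGO1 came to 1.04, that of TNRC6A to 1.18, and those of XPO5 and TNRC6C to 3.34 and 2.64. That of DROSHA came to 0.371, compared with 0.0509 on reads. On exonic reads the ratio of TNRC6C was 7.93.

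Across annotations, the pooled FH-DHX36-E335A reads of the 10 mRNAs were 48.9% in the 3'UTR (48.0% to 49.8%) and 42.5% in the CDS (41.7% to 43.4%), whereas all genes together had 53.3% and 16.9%. Another annotation than the 4 named held 1.73% of the members' reads and 21.4% of all reads. With FH-DHX36, the members had 38.5% in the CDS, 35.1% in introns and 17.9% in the 3'UTR (16.3% to 19.6%), beside 28.4%, 8.51% and 38.4% for all genes. Without DROSHA, the intronic share of the other members was 10.9%. Of exonic reads alone, the 3'UTR held 51.5% on the members with FH-DHX36-E335A, compared with 71.9% over all genes. With FH-DHX36 it held 31.7%, compared with 51.4%.

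By gene, more than 50% of the FH-DHX36-E335A reads were in the 3'UTR on 4 mRNAs (AGO1, AGO2, TNRC6B and TNRC6C), compared with 49.4% of bound genes, and in the CDS on 3 (TNRC6A, DICER1 and XPO5), compared with 17.1%. With FH-DHX36, the 3'UTR held more than 50% on 2 mRNAs (AGO1 and XPO5), compared with 35.9%, and the CDS on 4 (AGO2 and the 3 TNRC6 mRNAs), compared with 27.5%. AGO2, TNRC6B and TNRC6C thus had most reads in the 3'UTR with FH-DHX36-E335A and in the CDS with FH-DHX36. For TNRC6C the FH-DHX36 CDS share was 56.9%, with an interval (47.2% to 66.1%) that includes 50%. The FH-DHX36-E335A 3'UTR share of AGO2 had a lower limit of 50.6%. The FH-DHX36 CDS reads of AGO2 and of TNRC6C came from 1 cluster each.

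The mRNAs differ in region lengths, which were taken from the canonical transcripts of GENCODE release 44 on GRCh37, a later annotation than the one the authors used. Where a 3'UTR was shorter in the earlier annotation, its reads per kb here may be too low. Which transcript forms HEK293 cells use was not measured. The 3'UTR made up from 17.3% of the DROSHA transcript to 85.2% of the AGO3 transcript. AGO1 had 100% of its exonic FH-DHX36-E335A reads in a 3'UTR of 79.7% of its length, and TNRC6C 59.0% in 38.3%. In contrast, TNRC6A had 5.06% in 28.4%, DICER1 19.8% in 41.1%, AGO3 55.9% in 85.2% and AGO2 56.1% in 81.5%. The members together had 88.4 FH-DHX36-E335A reads per kb of 3'UTR and 126 per kb of CDS, whereas all bound genes with a transcript had 232 and 88.5. With FH-DHX36 the members had 8.09 and 24.8 reads per kb, and all bound genes 63.6 and 53.4. The pooled values do not hold for each member. CDS reads per kb exceeded 3'UTR reads per kb on 5 of the 10 (DICER1, AGO2, AGO3, TNRC6A and TNRC6B). The pooled 3'UTR value depends much on AGO2 and AGO3. Their 3'UTRs had 11888 and 16755 of the members' 67029 nt, with 180 and 118 reads. With FH-DHX36-E335A, DGCR8 (515) and TNRC6C (274) lay above 232 reads per kb of 3'UTR, and DROSHA, DICER1, AGO1, AGO2 and AGO3 lay below 88.5 per kb of CDS. TNRC6A alone held 1838 of the members' 5154 CDS reads.

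**Figure D3:**
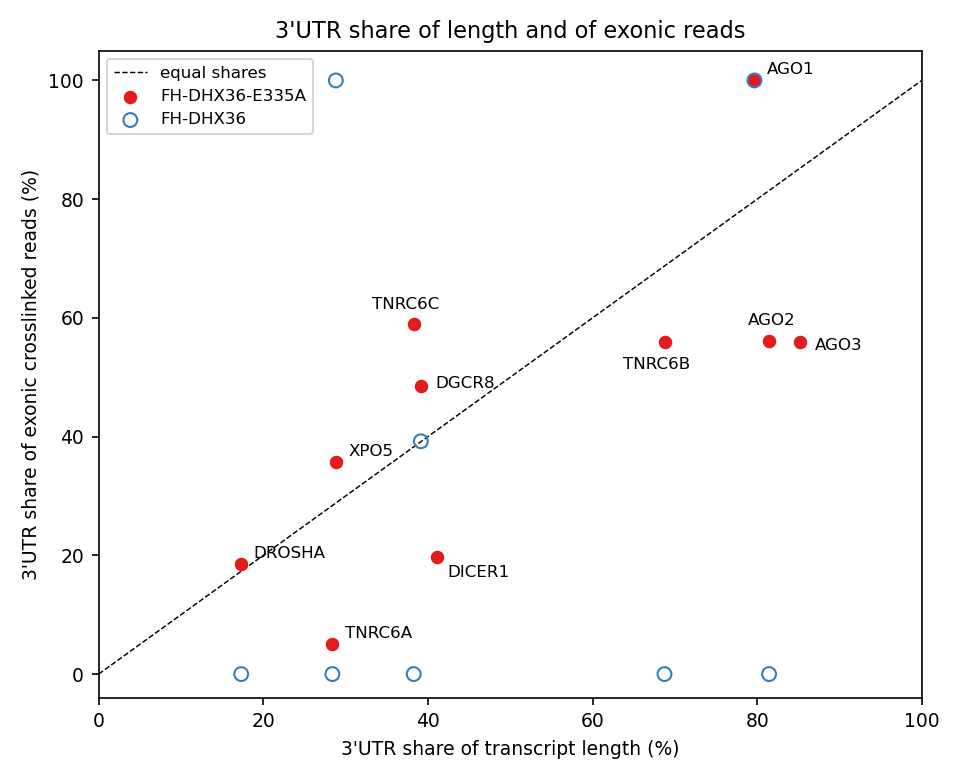
Share of the transcript length in the 3'UTR (horizontal axis, %) against the share of exonic crosslinked reads in the 3'UTR (vertical axis, %), with filled points for FH-DHX36-E335A (10 mRNAs, labelled) and open circles for FH-DHX36 (8 mRNAs), and a dashed line of equal shares. AGO1 is at 100% in both PAR-CLIPs, TNRC6A and DICER1 lie below the line with FH-DHX36-E335A, and 5 FH-DHX36 circles are at 0.

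Matches to the looser G-run pattern were searched on the sense strand of each transcript. The members had 108 in their 3'UTRs, 86 in their CDS and 17 in their 5'UTRs. This is 1.61, 2.11 and 5.75 per kb, close to the 1.58, 2.40 and 5.00 per kb of all 19528 canonical transcripts. The TNRC6A 3'UTR of 2411 nt had no match, whereas 81.5% of 3'UTRs within 20% of this length had one, and its CDS, where 93.6% of its FH-DHX36-E335A reads lay, had 9. The TNRC6A CDS value of 1.53 per kb was below the 2.40 of all canonical CDS. Its 5'UTR had 3 matches and no reads. DICER1 had 1 match in a 3'UTR of 4270 nt, while AGO3 had the most, 32 in 16755 nt, with few reads. AGO1 had 22 matches in its 3'UTR, or 2.01 per kb, and 7 in its CDS, or 2.72 per kb, where it had no reads. The strict pattern was present in the 3'UTRs of AGO1 and TNRC6B and in no other region of a member. Of 3'UTRs within 20% of the AGO1 length, 32.9% held it, and 36.8% of those near the TNRC6B length.

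Over the 10 mRNAs, the share of exonic FH-DHX36-E335A reads in the 3'UTR had a Spearman's rho of 0.794 and a Pearson's r of 0.820 with the share of G-run matches in the 3'UTR. With the share of length in the 3'UTR the values were 0.648 and 0.730. The shares of matches and of length come from the same transcripts, and longer regions have more room for matches. Whether the coefficients of these 2 shares differ was not tested, and 10 mRNAs are few for it. With FH-DHX36, over 8 mRNAs, rho was 0.289 and 0.165. There 5 of the 8 shares were tied at 0 and those of AGO1 and XPO5 at 100%. These 2 coefficients thus rest on few distinct values. The table does not place clusters within a region, so no match is tied to a cluster.

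**Figure D4:**
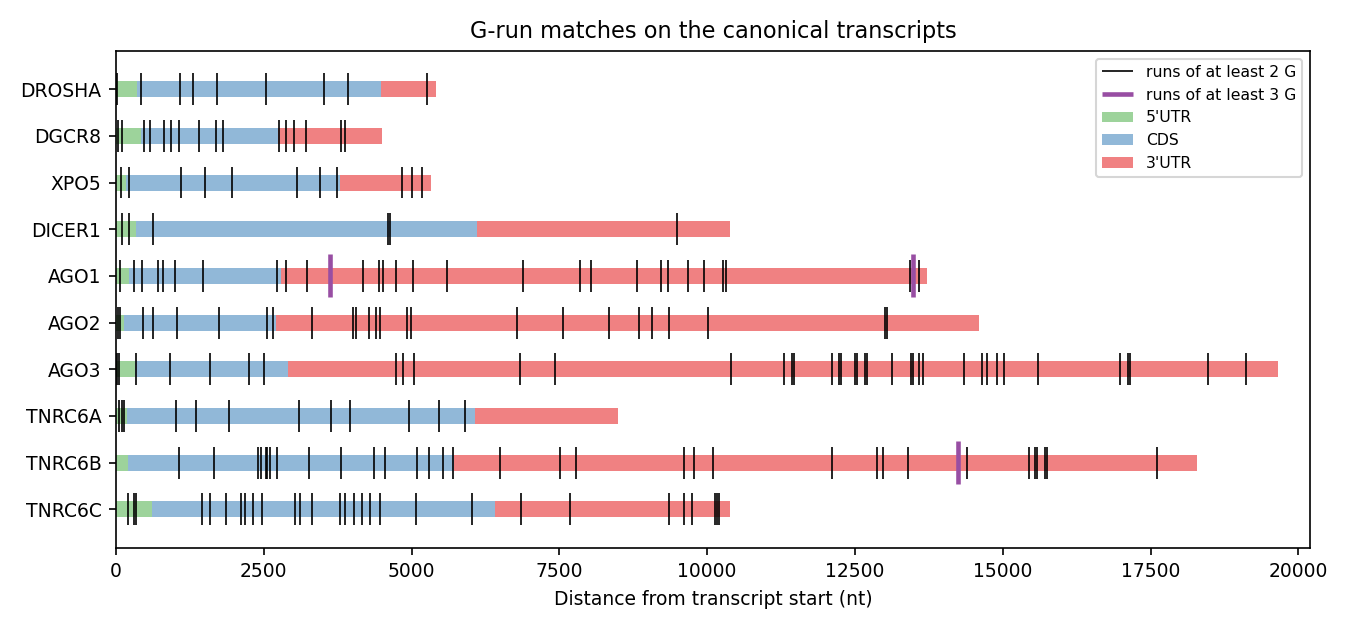
Canonical transcripts of the 10 mRNAs drawn to scale (horizontal axis, nt from the transcript start), with 5'UTR, CDS and 3'UTR in color, thin lines at matches with at least 4 runs of at least 2 guanines, and thick lines at matches with runs of at least 3. The 3'UTR of TNRC6A has no line, and AGO1 has 2 thick lines, near the start and the end of its 3'UTR, and TNRC6B 1.

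The other genes of the pathway were taken as 4 lists, whose counts of bound genes stand beside 48.1% of genes with a coding transcript for FH-DHX36-E335A and 31.2% for FH-DHX36. Among 8 partners of DROSHA, DICER1 or XPO5, RAN included, 6 had an FH-DHX36-E335A and 5 an FH-DHX36 cluster. ADAR, which edits adenosines in double-stranded RNA, had an NXPM of 95.1 and 27.9, and 5014 of its 6765 FH-DHX36-E335A reads were in the CDS. DDX17, a helicase cofactor of DROSHA, had 10674 and 1980 reads. DDX5 and TARBP2 had no cluster in either PAR-CLIP.

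Among 23 genes of deadenylation and decapping, the steps that follow TNRC6, 21 and 15 had a cluster. CNOT6L, a deadenylase, had the highest FH-DHX36-E335A NXPM of all 4 lists, at 272, with 3637 of 3687 reads in the 3'UTR, and 49.7 with FH-DHX36. DCP2, the decapping enzyme, reached 104 and 20.4. Of the 15 genes bound in both, 8 were over 2-fold higher by RPM with FH-DHX36-E335A, while 3 were higher by this fold in the FH-DHX36 line, beside 28.6% and 24.8% of all genes bound in both. The CDS held 13.4% of the list's FH-DHX36-E335A reads and 0.404% of its FH-DHX36 reads, beside 16.9% and 28.4% over all genes and 42.5% and 38.5% over the members. EDC3, a decapping enhancer, had 1606 of the list's FH-DHX36 reads, none of them in the CDS.

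Among 13 genes of Argonaute loading and its cofactors, AGO4 included, 12 and 10 had a cluster. FXR1, an RNA-binding protein related to FMR1, had an NXPM of 60.9 and 13.01, and FKBP4, an HSP90 co-chaperone, 19.2 and 18.3. Of 7 genes that act on let-7 or add terminal uridines, 6 and 3 had a cluster. LIN28B, which blocks let-7 processing, had an NXPM of 110 and 59.8, with 2778 of 2991 FH-DHX36-E335A reads in the 3'UTR, while LIN28A had no cluster. TRIM71 had an FH-DHX36-E335A NXPM of 154 from 210 reads and no FH-DHX36 cluster. The median RPM ratio over the genes bound in both was 1.35, 2.02, 1.57 and 1.83 in the 4 lists, in the order given.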

How the data were processed

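PAR-CLIP libraries of both HEK293 lines (2 samples each) were sequenced by the authors, mapped to hg19 and grouped into clusters with PARalyzer in PARpipe, with GENCODE v19 categories. Base calls were converted with bcl2fastq 2.17.1 per the labels. The counts of clusters and of crosslinked reads were deposited by the authors without normalization. NXPM was deposited by the authors as a score. Abundance was recovered as RPM divided by NXPM, minus 0.001. Reads in none of the 4 categories (5'UTR, 3'UTR, CDS, introns) are called another annotation.

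All other values were computed with Python 3.11.15, pandas 2.3.3 and scipy 1.17.1. RPM are crosslinked reads per 1000000 of all crosslinked reads of that PAR-CLIP, and ratios are of RPM. Percentiles and medians are over genes with a cluster in that PAR-CLIP. Transcripts are canonical protein-coding ones of GENCODE release 44 on GRCh37, the build of hg19, and all sites printed were checked against that genome. Code was tested on simulated data. Named genes were the 10 members, AGO4, DHX36, up to 3 genes per list and PAR-CLIP with the highest NXPM, and the 3 genes nearest to DGCR8, while genes of the lists without a cluster were named after their values were seen. Members and lists were chosen with earlier results of these data known.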

Additional observations from a re-analysis of the deposited data

How the results depend on the processing

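No paired analysis was possible because the table holds 1 value per cell line, and for the same reason no replicate could be left out. The number of members bound stayed at 10 with FH-DHX36-E335A under both alternatives, and at 8 or 7 with FH-DHX36. The 3'UTR share of the members' reads depended on how it was counted. With clusters in place of reads it was 44.9% for the E335A line and 26.9% for the FH-DHX36 line, over exonic reads alone 51.5% and 31.7%, and as the mean of the genes' own shares 41.7% and 27.9%, the FH-DHX36 value being lower under each. The pooled RPM ratio came to 2.44 on exonic reads, to 1.32 after division by the median ratio of all genes bound in both, and to 1.97 without DROSHA, an alternative added after seeing the data. The ratio of DROSHA turned from 0.0509 to 1.55 on exonic reads, since its FH-DHX36 reads are nearly all intronic. Those of DGCR8 and AGO2 also turned, to 1.31 and 1.11. With runs of at least 3 guanines, 3 matches remained in the members' 3'UTRs. The cause of the other shifts was not tested. The count of FH-DHX36 reads limits statements on absent clusters, with 2084 reads on all members.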

Other observations

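Of the members, DGCR8 and DICER1 hold annotated microRNA genes on their own strand. On GRCh37, MIR3618 lies in a 5'UTR exon of DGCR8 at chr22:20073269-20073356, MIR1306 in a coding exon at chr22:20073581-20073665, and MIR3173 in an intron of DICER1 at chr14:95604256-95604323. DGCR8 is known to be cut by DROSHA at such hairpins. It was also the member with the most FH-DHX36-E335A reads in the 5'UTR, all in 1 cluster. The positions of these reads are not known, and whether they touch the hairpins was not tested.

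By the shares of reads in each annotation in both PAR-CLIPs, the genes nearest to DGCR8 among 3116 with at least 100 reads in each were ZNF703, ZNF746 and CREBZF, at Euclidean distances of 0.220, 0.265 and 0.317. ZNF703 had 55.9% of its FH-DHX36-E335A reads in the 3'UTR, and 21.5% and 10.8% in coding sequence and 5'UTR.

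The pentamer ATTTA, found in AU-rich elements, occurred 2.10 times per kb in the members' 3'UTRs, overlapping copies counted, and 2.27 times per kb in all canonical 3'UTRs. AGO3 had the most copies, 41, and DGCR8 had none in its 3'UTR.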
